A study of Mus musculus with 10 samples.

Results

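The pore and auxiliary subunits of voltage-gated sodium and calcium channels were examined in the left ventricle of mice with chronic kidney disease (CKD). Members were every gene entry whose symbol follows the sodium channel pattern (Scn, a number, then a or b) or begins with Cacna, Cacnb or Cacng, and that names a single gene. This gave 39 members among 23303 entries, 13 of them sodium channel genes and 26 calcium channel genes. The 23 members with a mean of at least 0.1 FPKM over all libraries were tested. FPKM is the number of fragments scaled to transcript length and library size. The member just inside that floor was Cacna2d3, at 0.130 FPKM, and the one just outside was Cacng1, at 0.0634 FPKM. The entry Scn2a1, the older symbol of the brain sodium channel gene Scn2a, does not follow the pattern and was left out. Its mean FPKM was 0.125 ± 0.0303 for the CKD mice and 0.120 ± 0.0465 for the Sham mice (SD, n = 5 each, as for every mean below).

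The study, on uremic cardiomyopathy, compared 5 male 129X1/SvJ mice in the CKD surgery group with 5 male mice of the same strain in the Sham group. The series text calls the second group normal mice, and the labels name no transgene, drug or diet. The sources used here do not give the CKD operation, the age of the mice or the time since surgery. Each library came from 1 mouse, and whole left ventricle was used, so muscle, vascular, stromal and nerve transcripts were measured together.

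Voltage-gated sodium channels carry the fast inward current of the cardiac upstroke, and each consists of a large pore-forming alpha subunit with small beta subunits beside it. Voltage-gated calcium channels have a related alpha1 pore, to which a cytoplasmic beta subunit and an extracellular alpha2delta subunit bind. In ventricular muscle the L-type calcium channel admits the calcium that triggers release from the sarcoplasmic reticulum. T-type channels open at more negative voltages and are known from pacemaker, conducting and fetal heart cells.

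One member passed the test in CKD and it was lower. Cacna1s, which encodes the L-type pore of skeletal muscle, fell from 2.24 ± 0.229 FPKM in Sham to 1.58 ± 0.122 in CKD. Cacna1c, the main cardiac L-type calcium pore, differed by -0.07 on the log2 scale. Among members that did not pass, Scn10a, Scn4a and Cacna1g had lower means in CKD, and Cacnb3 had a higher one.

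By limma on log2(FPKM + 0.5), with adjustment over all 14557 tested genes, 1 of the 23 tested members was lower and 0 were higher at an adjusted p under 0.05. This is 4.35% of the members, against 4.44% of all tested genes (1.69% lower and 2.75% higher). An unadjusted p under 0.05 was reached by 6 members (26.1%), 5 of them lower in CKD and 1 higher, against 18.7% of all tested genes. The groups did not overlap for 2 members (8.70%), Cacna1s and Scn10a, against 6.75% of all tested genes. The share of calls among the members was thus near that of the whole table. The median change of the 23 members was -0.04 (log2), with 15 negative and 8 positive, and that of all tested genes was -0.00062.

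**Figure D1:**
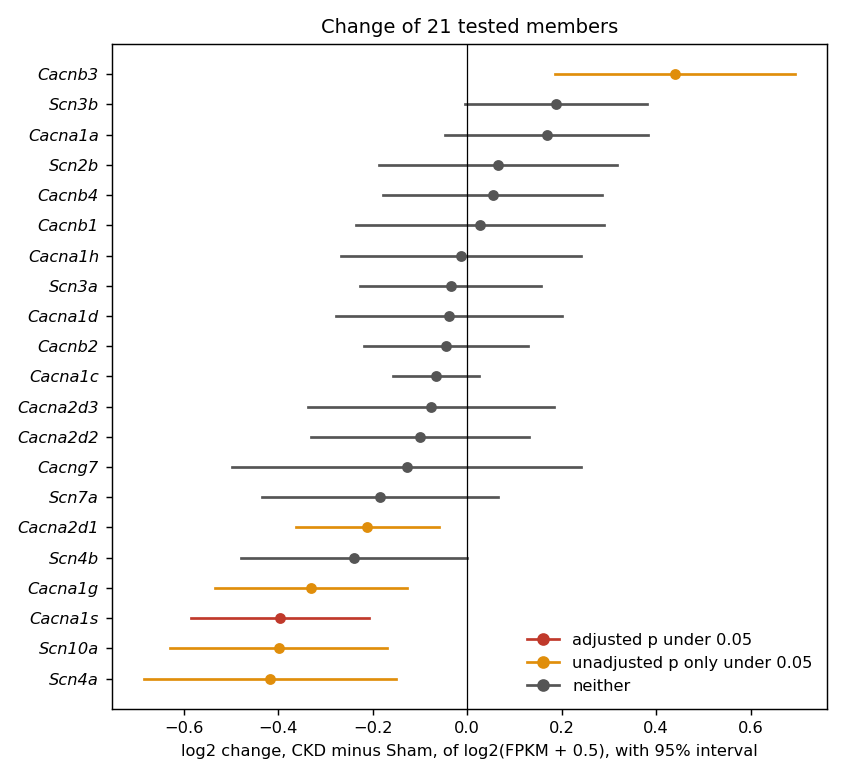
Log2 change (CKD minus Sham, of log2(FPKM + 0.5)) of 21 of the 23 tested members, each with its 95% interval from limma; colours mark an adjusted p under 0.05, an unadjusted p under 0.05 only, or neither. The intervals of Cacna1s, Scn10a, Scn4a, Cacna1g and Cacna2d1 lie below 0 and that of Cacnb3 above it.

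The FPKM of a library summed to between 570509 and 605007. In 8 of the 10 libraries low values moved in shared steps, so the fewest fragments that fit a low value could be read. Between Sham 2 and each of the other 7, from 26.5% to 30.5% of the low values compared had 1 common ratio, and relative depth ran from 0.906 to 1.15. In CKD 1 and Sham 1 this share was 0.436% and 0.546%, and no step was found. Values without them are given for several members below. All 14 ventricular muscle markers were detected, with Myl2, the ventricular regulatory light chain, at 20611 ± 1801 FPKM in Sham. Their summed FPKM was lowest in CKD 1 (78955) and Sham 1 (82119), against 93721 to 98842 in the other 8. Bmp10 and Isl1, which mark atrial and sinus node cells, were listed at 0 in all 10 libraries. An entry at 0 can be a failed estimate here, since the cardiac genes Myh6 and Atp2a2 were also listed at 0 throughout.

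Among the 21 tested members described here, the order of levels in Sham began with Cacna1c (65.8 ± 2.43 FPKM). Next came Cacna2d1 (37.8 ± 3.03) and Cacnb2 (29.0 ± 3.23), whose ranges did not overlap. These are 1 calcium pore with 1 alpha2delta and 1 beta subunit. Over all 10 libraries, 8 further members had means between 1.24 and 6.89 FPKM and 10 more had means between 0.130 and 0.904. Below the floor, 13 members had traces and 3 were listed at 0 in every library.

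**Figure D2:**
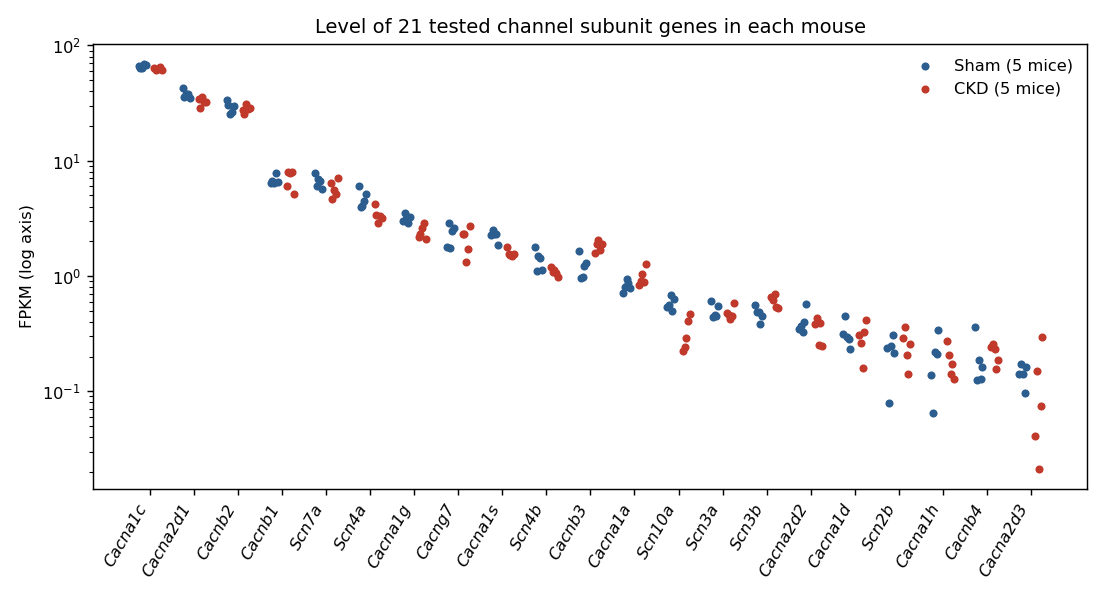
FPKM (log axis) of 21 tested members in each mouse, ordered by the Sham mean; blue points are the 5 Sham mice and red points the 5 CKD mice. Cacna1c leads at 65.8 FPKM in Sham, and the points of the 2 groups lie apart only for Cacna1s and Scn10a.

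Among sodium channel alpha subunits, Scn10a, first known from sensory neurons, spans chromosome 9 from 119608456 to 119719322 on the minus strand (GRCm38, GENCODE M21). It was at 0.224, 0.240, 0.287, 0.407 and 0.468 FPKM in CKD 1 to 5 and at 0.535, 0.563, 0.680, 0.501 and 0.636 in Sham 1 to 5. Every CKD mouse was below every Sham mouse. In the 8 libraries with readable steps (each value within 0.05 of a whole number), these were 20, 24, 29 and 31 fragments in CKD 2 to 5 and 41, 51, 37 and 42 in Sham 2 to 5. The mean was 0.325 ± 0.107 FPKM in CKD against 0.583 ± 0.0736 in Sham, a ratio of 0.558. On the log2(FPKM + 0.5) scale, which compresses values this low, the difference was -0.40 (SE 0.11), and it did not pass (limma adjusted p = 0.0539). It passed in 6 of 21 alternatives (adjusted p from 0.0371 to 0.0499), and over all 21 the adjusted p ran from 0.0371 to 0.132 (0.124 without both CKD 1 and Sham 1). Scn11a, another pore of sensory neurons, lies 34.4 kb from it and had at most 3 fragments in any of the 8 libraries.

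Scn4a, the skeletal muscle sodium pore, was at 4.19, 3.37, 2.86, 3.34 and 3.20 FPKM in CKD 1 to 5. In Sham 1 to 5 it was at 6.04, 3.95, 4.01, 4.48 and 5.10 FPKM. Only CKD 1 reached into the Sham range, and Sham 1 was the highest library. The difference was -0.42 (log2, SE 0.12), with a 95% interval from -0.68 to -0.15, and did not pass (limma adjusted p = 0.0787). It passed with sample weights (0.0440), without CKD 1 (0.0474) and with a term for CKD 1 and Sham 1 (0.0149), was 0.0547 without both of these, and over all 22 alternatives the adjusted p ran from 0.0149 to 0.167.

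The sodium channel genes on chromosome 2 differed widely in level although they are neighbours. Scn7a, which encodes Nax, a sodium-sensing channel of glia and other cells, was at 6.61 ± 0.804 FPKM in Sham and 5.78 ± 0.978 in CKD (log2 -0.19, adjusted p = 0.428). Scn3a, an embryonic brain pore, was at 0.4998 ± 0.0726 FPKM in Sham and 0.475 ± 0.0620 in CKD (log2 -0.03, adjusted p = 0.890), read as 48 to 58 fragments a library in the 8. Between them, Scn1a and Scn9a, pores of central and peripheral neurons, had 1 fragment each over the 8 libraries. Scn7a lies 38.5 kb from Scn9a. Scn8a, a neuronal pore on chromosome 15, had at most 6 fragments in a library.

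Sodium channel beta subunits are cell adhesion proteins that modulate gating, and 3 of them are described here. Scn4b, whose product is known for resurgent sodium current, averaged 1.09 ± 0.0847 FPKM over the CKD mice and 1.39 ± 0.287 over the Sham mice (log2 -0.24, unadjusted p = 0.0502, limma adjusted p = 0.268). Its Sham values ran from 1.10 to 1.79 FPKM, with Sham 1 highest, and the difference was -0.17 without Sham 1 and -0.19 without both CKD 1 and Sham 1. Scn3b was at 0.609 ± 0.0754 and 0.473 ± 0.0635 FPKM (log2 0.19, adjusted p = 0.276). Scn2b, 8.3 kb from Scn4b on chromosome 9, was at 0.250 ± 0.0831 and 0.218 ± 0.0851 FPKM (log2 0.07, adjusted p = 0.826; -0.01 without Sham 2). None of these 3 passed.

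The L-type calcium pore of heart muscle, Cacna1c, was at 64.1, 61.3, 62.7, 64.5 and 61.1 FPKM in CKD 1 to 5. It was at 65.8, 63.0, 63.7, 68.6 and 67.7 FPKM in Sham 1 to 5. The groups overlapped between 63.0 and 64.5 FPKM, and the SD was small in both (1.53 and 2.43). The fold change was 0.955, with a 95% interval from 0.896 to 1.02 (adjusted p = 0.434). Cacna1c supplied from 95.5% to 97.4% of the L-type FPKM across libraries.

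Cacna1s, which in skeletal muscle acts as the voltage sensor for calcium release, was at 1.79, 1.56, 1.52, 1.48 and 1.55 FPKM in CKD 1 to 5. In Sham 1 to 5 it was at 2.27, 2.49, 2.29, 2.29 and 1.86 FPKM. The highest CKD mouse, CKD 1, was below the lowest Sham mouse, Sham 5. The fall was -0.40 (log2, SE 0.09), a fold change of 0.760 with a 95% interval from 0.667 to 0.866 (limma adjusted p = 0.0252). Leaving out any single one of CKD 2, CKD 3, CKD 5, Sham 2, Sham 3 or Sham 4 ended the call (adjusted p from 0.0593 to 0.0643). It held in the other 16 alternatives, among them that without both CKD 1 and Sham 1 (0.0426), and over all 22 the adjusted p ran from 0.00973 to 0.0643. Cacna1c exceeded Cacna1s 39.9 ± 2.86 times in CKD and 29.7 ± 4.10 times in Sham. These ratios overlapped, at 35.8 or more in CKD and up to 36.3 in Sham. Cacna1s spans chromosome 1 from 136052750 to 136119822 on the plus strand, and 1309 exonic bases overlap Gm37759, an antisense gene. The sources used here do not say whether the counting used strand, so within those shared bases reads of the 2 genes cannot be told apart. The same limit applies to Cacnb4 (1433 exonic bases shared with an opposite-strand transcript), Cacnb2 (618, 239 and 111), Cacna1d (589, with the protein-coding gene Chdh), Cacna1a (435), Cacna1h (158), Cacna2d2 (82) and Cacnb1 (80). In whole tissue, fewer cells of a type and less RNA per cell cannot be told apart either.

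**Figure D3:**
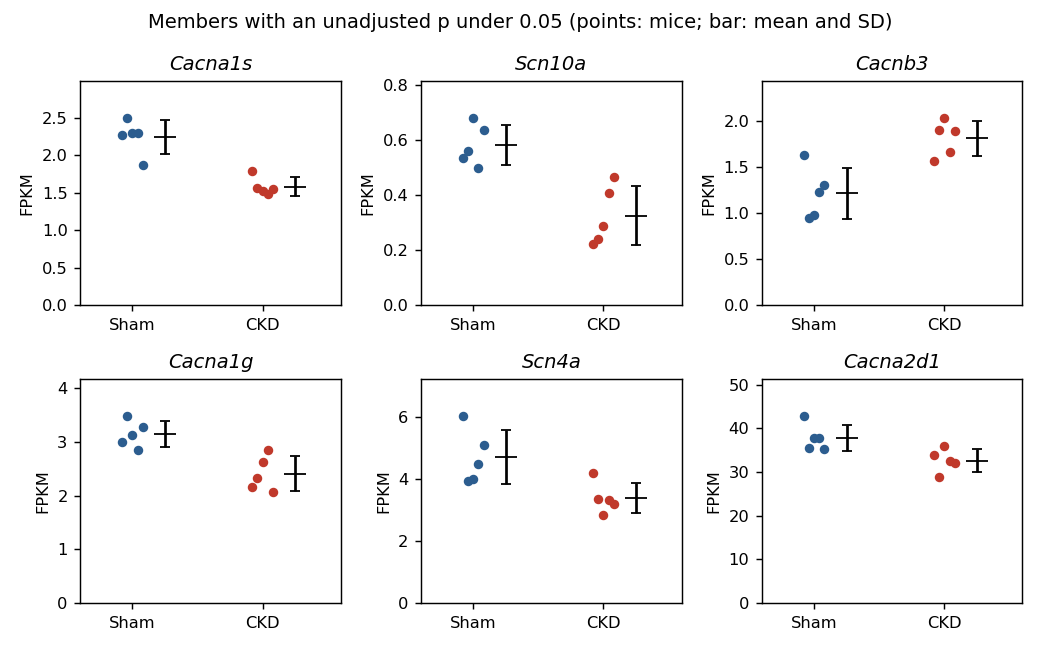
FPKM in each mouse (points) for the 6 members with an unadjusted p under 0.05, with the group mean and SD as a bar beside the points; each vertical axis starts at 0. For Cacna1s the 5 CKD mice (at most 1.79 FPKM) lie below the 5 Sham mice (at least 1.86), and for Scn10a at most 0.468 against at least 0.501.

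Because Cacna1s and Scn4a are best known from skeletal muscle, markers of that tissue were set beside them. The summed FPKM of 13 skeletal markers (without Ckm, which heart muscle also uses) was 33.4 in CKD 2, against 2.27 to 4.96 for the remaining CKD mice and 2.53 to 5.15 for the Sham mice. In the full list of 14, with Ckm, 0 of the 9 tested genes passed (0 with an unadjusted p under 0.05). Differences were positive for 7 and negative for 2, with a median log2 of 0.48 over all libraries, CKD 2 included. Myh4, a fast skeletal myosin, was at 2.21 FPKM in CKD 2 and at most 0.0149 in any other library, and Myf6 was listed at 0 throughout. CKD 2 did not stand out in either channel gene, at 1.56 FPKM for Cacna1s and 3.37 for Scn4a. Without CKD 2 the difference of Cacna1s was -0.39 (log2, adjusted p = 0.0635). The part of skeletal muscle RNA in these results was not tested.

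The windows before the RefSeq starts of Cacna1s, Scn4a and Scn10a are shown because these 3 genes had the lowest changes of the members. Each holds the 250 bases before that start in GRCm38.p6, 5′ to 3′ on the gene's strand, with each CANNTG, the E-box core that basic helix-loop-helix factors can bind, in capitals. The windows are chr1:136052561-136052810 (plus strand), chr11:106349391-106349640 (minus strand) and chr9:119719033-119719282 (minus strand).
Cacna1s: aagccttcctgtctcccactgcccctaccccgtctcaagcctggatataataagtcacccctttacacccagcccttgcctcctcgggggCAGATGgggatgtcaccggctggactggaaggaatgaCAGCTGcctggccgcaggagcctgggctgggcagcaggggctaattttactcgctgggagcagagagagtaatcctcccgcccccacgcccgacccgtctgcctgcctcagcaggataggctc
Scn4a: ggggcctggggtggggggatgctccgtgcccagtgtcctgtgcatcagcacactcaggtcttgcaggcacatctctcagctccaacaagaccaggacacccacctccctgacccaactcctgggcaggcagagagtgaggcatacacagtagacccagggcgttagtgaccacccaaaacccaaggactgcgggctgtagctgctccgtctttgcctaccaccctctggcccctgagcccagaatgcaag
Scn10a: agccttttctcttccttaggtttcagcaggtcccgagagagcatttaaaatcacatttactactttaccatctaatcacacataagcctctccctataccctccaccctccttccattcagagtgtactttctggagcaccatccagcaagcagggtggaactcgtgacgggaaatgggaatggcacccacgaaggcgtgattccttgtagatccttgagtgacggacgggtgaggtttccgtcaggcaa

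Cacna1s held 2 CANNTG matches, beginning 160 and 123 bases before the start, and the windows of Scn4a and Scn10a held 0. On either strand, 66.2% of 32851 RefSeq windows of this length held at least 1 match and 31.8% at least 2. GGGCGG, the core of the GC box, occurred once in the Cacna1s window and in 32.7% of all windows, and TATAAA in none of the 3 and in 12.4% of all. The GC content was 62.4% for Cacna1s, 61.6% for Scn4a and 49.6% for Scn10a, against a median of 52.4%. A match describes letters in a window, and the data do not say which start these hearts used. All 3 RefSeq starts lie inside the GENCODE gene spans. The windows of Scn4a (span 106318592 to 106353288 on chromosome 11) and Scn10a are wholly within them, and that of Cacna1s is partly within. The promoter table matched 29 of the 39 members.

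Cacna1d, an L-type pore of sinus node and atrial cells, was low, with means of 0.295 ± 0.0944 FPKM for CKD and 0.315 ± 0.0811 for Sham (log2 -0.04, adjusted p = 0.907; 0.03 without CKD 3 and 0.02 without Sham 2). Cacna1f, the retinal L-type pore, had at most 1 fragment in any of the 8 libraries. Among atrial markers 2 of 5 tested genes passed as higher and 0 as lower, against 2.75% and 1.69% of all tested genes. Differences of these markers were positive for 3 and negative for 2, with a median log2 of 0.03. Their summed FPKM, nearly all from Nppa (atrial natriuretic peptide, 3237 ± 509 FPKM in CKD against 1319 ± 364), was 2838 to 4113 in CKD and 836 to 1820 in Sham. Their part in the value of Cacna1d was not tested.

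Of the T-type pores, Cacna1g was at 2.16, 2.32, 2.63, 2.86 and 2.08 FPKM in CKD 1 to 5. It was at 3.00, 3.48, 3.12, 2.86 and 3.27 FPKM in Sham 1 to 5. The groups touched only at CKD 4 and Sham 4. The difference was -0.33 (log2, SE 0.09), with a 95% interval from -0.53 to -0.13 (limma adjusted p = 0.0687), and it passed only without CKD 4 (0.0417) among 22 alternatives (0.0417 to 0.150). Cacna1h, the other T-type pore known from heart and vessels, averaged 0.184 ± 0.0578 FPKM in CKD mice and 0.194 ± 0.103 in Sham mice. Its difference was -0.01 (log2, adjusted p = 0.974), and its sign turned in 5 of 21 alternatives. Cacna1i, a neuronal T-type pore, stood under the floor, with 1 to 6 fragments in each of the 8 libraries. Cacna1g supplied 91.9% ± 2.54 of the T-type FPKM in CKD and 93.3% ± 2.52 in Sham.

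Markers of the conduction system, where T-type and other pacemaker genes are known, gave 0 of 9 calls (4 with an unadjusted p under 0.05; median log2 -0.08). Their summed FPKM was 36.4 to 40.1 in CKD and 37.7 to 48.3 in Sham, with Isl1 listed at 0 throughout. Gjc1, the connexin with the highest level of this list, was at 15.1 ± 1.39 and 14.8 ± 1.52 FPKM. Their part in the values of Cacna1g and Scn10a was not tested.

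Nerve and Schwann cell markers were set beside the sodium channel genes that neurons and glia use. In this list, 0 of 13 tested genes passed as higher and 1 as lower, against 2.75% and 1.69% of all tested genes. Differences were positive for 7 and negative for 6, with a median log2 of 0.0012. The sums overlapped, at 24.3 to 29.7 FPKM in CKD and 22.3 to 27.5 in Sham. Chat, the acetylcholine-making enzyme of cholinergic neurons, was listed at 0 throughout. Uchl1, a ubiquitin hydrolase abundant in neurons, was the highest gene of the list, with means of 9.43 ± 1.83 FPKM (CKD) and 8.00 ± 1.47 (Sham). The gene that fell, named after its value was seen, was Dbh, which makes noradrenaline, at 1.02 ± 0.331 against 1.98 ± 0.166 FPKM (log2 -0.73, adjusted p = 0.0120). Its part in the values of Scn10a was not tested.

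The P/Q-, N- and R-type pores are known from nerve terminals and endocrine cells. Cacna1a (P/Q-type) was at 0.840, 0.906, 1.03, 0.891 and 1.27 FPKM in CKD 1 to 5 and at 0.713, 0.803, 0.933, 0.871 and 0.779 in Sham 1 to 5. CKD 3 and CKD 5 lay above the Sham range, and the fold change was 1.12 (95% interval 0.969 to 1.30, adjusted p = 0.395). Cacna1b (N-type) and Cacna1e (R-type) stood under the floor, with at most 7 and 6 fragments in any of the 8 libraries.

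Calcium channel beta subunits bring the pore to the membrane and set its gating. Cacnb2, the main cardiac form, was at 27.6, 25.3, 31.1, 27.9 and 28.4 FPKM in CKD 1 to 5 and at 33.3, 30.4, 25.3, 26.3 and 29.8 in Sham 1 to 5. The groups overlapped over nearly their whole range (fold change 0.970, 95% interval 0.860 to 1.09, adjusted p = 0.831). The sign turned, to 0.01 (log2), with sample weights, without Sham 1 and without both CKD 1 and Sham 1.

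Cacnb3, a beta subunit known from smooth muscle, neurons and lymphocytes, was the member with the largest positive difference. It was at 1.57, 1.91, 2.03, 1.66 and 1.89 FPKM in CKD 1 to 5. In Sham 1 to 5 it was at 1.63, 0.951, 0.976, 1.23 and 1.30 FPKM. The groups overlapped only because Sham 1 lay above CKD 1. The difference was 0.44 (log2, SE 0.12), a fold change of 1.36 with a 95% interval from 1.14 to 1.62, and did not pass with all libraries (limma adjusted p = 0.0545). It passed without Sham 1 (0.0250), without both CKD 1 and Sham 1 (0.0241), with a term for them (0.0486), with sample weights (0.0149) and without a variance trend (0.0479), and the adjusted p over 22 alternatives ran from 0.0149 to 0.126. Cacnb3 supplied 4.41% to 5.39% of the beta subunit FPKM in CKD and 2.50% to 3.91% in Sham. The ratio of Cacnb2 to Cacnb3 was 15.6 ± 1.70 in CKD and 24.5 ± 4.62 in Sham. This share and ratio restate the Cacnb3 values above, were chosen with those values known, and are no separate evidence.

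Marker transcripts of other cell types were set beside Cacnb3. Of 11 tested macrophage markers, 6 passed as higher by limma, against 2.75% of all tested genes. All 11 differences were positive with an unadjusted p under 0.05 (median log2 0.67). The sums of these markers were 383 to 556 FPKM in CKD and 271 to 328 in Sham. Lyz2 was the highest gene (lysozyme, 174 ± 24.3 and 138 ± 18.7 FPKM). Of 12 tested fibroblast markers, 7 passed as higher. Differences were positive for 11 and negative for 1 (8 with an unadjusted p under 0.05, median log2 0.46). The fibroblast sums were 1415 to 1622 and 1255 to 1381 FPKM, with Gsn as the highest (gelsolin, 639 ± 47.3 and 609.5 ± 49.1). Smooth muscle and pericyte markers gave 0 of 13 calls (6 with an unadjusted p under 0.05, median log2 0.18), with sums of 1636 to 1822 and 1418 to 1711 FPKM. The highest was Des (desmin, which heart muscle also makes), at 1405 ± 88.4 and 1195 ± 121. Endothelial markers gave 0 of 12 (1 with an unadjusted p under 0.05, median log2 0.09), with sums of 1401 to 2015 and 1575 to 1858 FPKM and Fabp4, a fatty acid binding protein, as the highest (1276 ± 223 and 1190 ± 86.7). No gene of these 4 lists was at 0 in all libraries. The part of these cells in the level of Cacnb3 was not tested. Heart muscle markers gave 0 of 14 calls (2 with an unadjusted p under 0.05, median log2 -0.02).

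Cacnb1, the beta subunit of skeletal muscle, averaged 6.995 ± 1.33 FPKM in CKD mice and 6.78 ± 0.598 in Sham mice (log2 0.03, adjusted p = 0.944), and its sign turned without any 1 of CKD 2, CKD 3 or CKD 4 (to -0.02). Cacnb4, a neuronal form, was at 0.215 ± 0.0423 and 0.193 ± 0.0983 FPKM (log2 0.05, adjusted p = 0.850), with Sham 1 at 0.363. The difference became 0.14 with Sham 1 left out (adjusted p = 0.481) and 0.12 with CKD 1 left out as well (0.564). Of the skeletal-type partners of Cacna1s in the list, Cacnb1 did not pass, and the gamma subunit Cacng1 was under the floor and not tested. The main alpha2delta gene, Cacna2d1, was lower in CKD without passing (log2 -0.21, limma adjusted p = 0.114).

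The alpha2delta subunits, some of which gabapentin-type drugs bind, were nearly all Cacna2d1, at 98.5% ± 0.461 of their FPKM in CKD and 98.5% ± 0.344 in Sham. Cacna2d1 was at 34.0, 28.8, 35.8, 32.4 and 32.0 FPKM in CKD 1 to 5 and at 42.8, 35.6, 37.7, 37.8 and 35.2 in Sham 1 to 5. Only CKD 3 lay within the Sham range, and CKD 2 and Sham 1 were the extremes. The difference was -0.21 (log2, SE 0.07), a fold change of 0.864 with a 95% interval from 0.778 to 0.960, and did not pass (limma adjusted p = 0.114, and 0.0546 to 0.243 over 22 alternatives). It was -0.17 without Sham 1 and -0.18 without both CKD 1 and Sham 1. Cacna2d2 averaged 0.342 ± 0.0865 FPKM in CKD mice and 0.401 ± 0.0960 in Sham mice (log2 -0.10, adjusted p = 0.690). Cacna2d3, at 0.117 ± 0.111 and 0.143 ± 0.0288 FPKM (log2 -0.08, adjusted p = 0.801), rested on 1 to 11 fragments a library in the 8. Cacna2d4, a retinal form 40.1 kb from Cacna1c on chromosome 6, had at most 3 fragments.

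Gamma subunits include the skeletal channel subunit Cacng1 and the AMPA receptor regulators of brain. Cacng7 was the only one above the floor, at 2.32, 2.30, 1.33, 1.70 and 2.74 FPKM in CKD 1 to 5 and at 1.78, 2.90, 1.75, 2.45 and 2.59 in Sham 1 to 5. These values were read as 11 to 21 fragments a library in the 8. The groups overlapped over most of their range (fold change 0.915, 95% interval 0.708 to 1.18, limma adjusted p = 0.755). Its neighbours on chromosome 7, Cacng8 and Cacng6, had at most 1 fragment in any of the 8 libraries. Cacng1 and Cacng5, on chromosome 11, had at most 3 and 2. Cacng2, Cacng3 and Cacng4 were listed at 0 in all 10 libraries.

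Proteins that bind or regulate these channels were looked at as 2 further lists, which overlap in part. Of 21 sodium channel partners, 0 were higher and 1 was lower, against 2.75% and 1.69% of all tested genes. Differences were positive for 10 and negative for 11 (6 with an unadjusted p under 0.05, median log2 -0.02). The gene that fell, named after its value was seen, was Gja1, the gap junction protein connexin 43, which shares the intercalated disc with the sodium channel. Its mean was 256 ± 11.1 FPKM for CKD and 332 ± 28.7 for Sham (log2 -0.37 with an SE of 0.06, limma adjusted p = 0.00573), and it passed in all 22 alternatives. Of 22 tested calcium channel partners, 0 passed (5 with an unadjusted p under 0.05; median log2 -0.06).

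**Figure D4:**
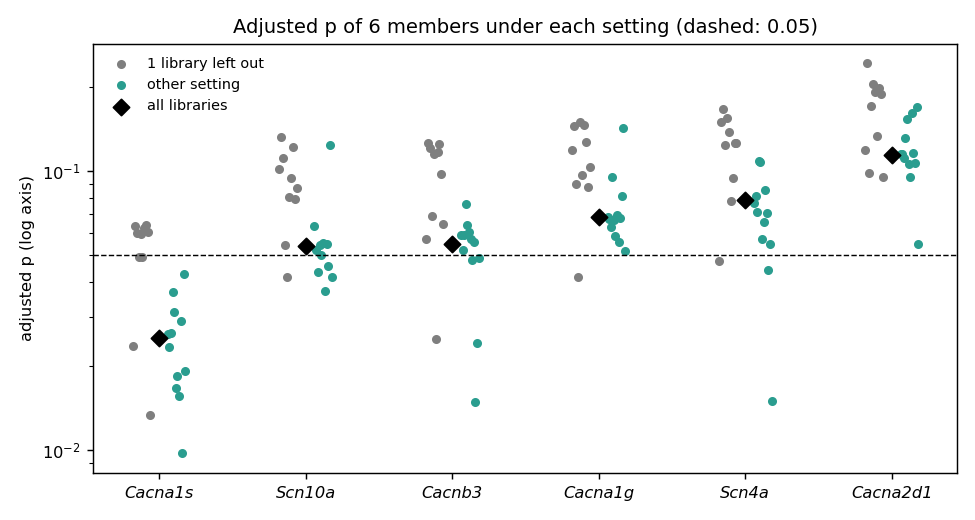
Adjusted p (log axis) of the 6 members with an unadjusted p under 0.05, with all libraries (diamonds), with 1 library left out (grey) and under each other setting (green); the dashed line is 0.05. Cacna1s ran from 0.00973 to 0.0643, and Cacna2d1 stayed above the line throughout, at 0.0546 or more.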

How the data were processed

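Left ventricular RNA of 5 CKD and 5 Sham mice was sequenced as single reads after TruSeq mRNA library preparation, per the labels' protocols. The authors deposited FPKM values, 1 per gene entry and mouse. STAR 2.4.0f1, Cufflinks 2.1.1 and Cuffdiff 2.1.1, and the builds mm10 and hg19, are named in the submitters' processing notes with no role. The sources used here do not give the strand setting.

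Genes with a mean of at least 0.1 FPKM were fitted as log2(FPKM + 0.5) with limma 3.58.1 in R 4.3.3 (eBayes with trend, two-sided, Benjamini-Hochberg over all 14557 genes, threshold 0.05), after the test was checked on simulated data. On that scale the fold changes of low genes are understated. No count model was used. Relative depth came from low-value steps (at most 0.2 FPKM). Fragment numbers are the fewest whole numbers that fit a member's values over the 8 libraries, so true numbers may be multiples of them. For other genes the number of fragments is unknown.

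Members and lists were chosen with earlier results of these data known. Some results, among them those of 2 tested members, are not reported here, though counts over all members include them. The other members were named, with values per mouse for those with an unadjusted p under 0.05 and for the highest of each calcium channel subunit family. Alternatives changed the pseudocount, filter, scaling, variance model, threshold or libraries; the term for CKD 1 and Sham 1 was added after the data were seen. Positions are from GENCODE M21 and promoters from RefSeq (GRCm38.p6).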

Additional observations from a re-analysis of the deposited data

Results flagged for a closer look

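Within groups of 5, a library was singled out when its gap to the nearest of the others was over 0.71 of the group's range. Of 46 groups (23 members in 2 conditions), 4 held such a library, where about 2.3 (5%) are reached by chance. Cacna1s was at 1.79 FPKM in CKD 1 and 1.48 to 1.56 in CKD 2 to 5. Cacnb1 was at 7.83 FPKM in Sham 4 and 6.38 to 6.69 in the other Sham mice. Cacnb4 was at 0.363 FPKM in Sham 1 and 0.125 to 0.187 in the others. Cacna2d2 was at 0.567 FPKM in Sham 5 and 0.327 to 0.395 in the others.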

How the results depend on the processing

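The count of members higher in CKD was 0 with all libraries and 1 (Cacnb3) without a variance trend, without both CKD 1 and Sham 1, with sample weights, with a term for them and at an adjusted p under 0.1. It was 0 to 1 when 1 library was left out. The count lower was 1 with all libraries, 2 without a filter on the mean, with quantile normalization and without a variance trend, 3 with sample weights and with the term, and 4 at an adjusted p under 0.1. It was 0 to 2 with 1 library left out: 0 without CKD 2, CKD 3, Sham 2, Sham 3 or Sham 4, 2 without CKD 1 or CKD 4, and without CKD 5 the 1 member was Scn10a and not Cacna1s. Over all genes 400 were higher and 246 lower. With 1 library left out these were 219 to 433 and 121 to 275. With the term 587 were higher and 453 lower, and with sample weights 542 and 361. At an adjusted p under 0.1, 720 were higher and 471 lower. The cause of these shifts was not tested.

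Among the members described, signs turned only where the change was near 0, none of them called (log2 values below). With 1 library left out, Cacna1h ran from -0.084 to 0.060, Cacnb2 from -0.091 to 0.0064, Scn3a from -0.072 to 0.00047, Cacnb1 from -0.024 to 0.13, Cacna1d from -0.091 to 0.028 and Scn2b from -0.010 to 0.12. Cacna1h was at 0.0022 with a pseudocount of 0.1. Cacnb2 was at 0.012 with sample weights and at 0.011 without both CKD 1 and Sham 1, where Scn3a was at 0.00025. No paired analysis was possible because the labels carry no numbers that link CKD and Sham mice. Depth limits the members under the floor, whose 0 to 7 fragments in each of 8 libraries cannot show a difference.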

Other observations

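Other channels of the same structural family were read from a separate list, of which 6 of 12 entries were above the floor and 0 passed (0 with an unadjusted p under 0.05, by limma). Tpcn1, a two-pore channel of endosomes and lysosomes, averaged 14.8 ± 1.04 FPKM in CKD mice and 13.3 ± 1.22 in Sham mice (log2 0.16, adjusted p = 0.288). Nalcn, the sodium leak channel of neurons, was at 0.221 ± 0.0434 and 0.286 ± 0.112 FPKM (log2 -0.11, adjusted p = 0.653). Catsper2, a calcium channel subunit known from sperm, was at 3.40 ± 0.419 and 3.35 ± 0.385 FPKM (log2 0.02, adjusted p = 0.955). Catsper1 and Fam155a were listed at 0 in all 10 libraries.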
